A study of Chrysanthemum x morifolium with 6 samples.

Results

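The FAR1/FHY3 proteins are plant transcription factors that descend from the transposases of Mutator-like mobile elements. They were followed here in chrysanthemum roots given salt water or purified water. A sequence cluster, the unit that stands for a gene in these data, was taken as a member when the authors had placed it in the FAR1 family. It was also taken when its Swiss-Prot match was a FAR1-related sequence or far-red protein of a flowering plant. The rule used annotation and no measured level, and it gave 107 of the 10744 clusters in the authors' table of transcription factors and other regulators. All clusters of the series number 469059.

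In Arabidopsis, FAR-RED ELONGATED HYPOCOTYL 3 (FHY3) and FAR-RED IMPAIRED RESPONSE 1 (FAR1) work together in far-red light signalling. They switch on FHY1 and FHL, whose products carry the photoreceptor phytochrome A into the nucleus, and they also act on the circadian clock and other processes. The FAR1-related sequences (FRS) share their transposase-derived architecture, in which an N-terminal zinc finger binds DNA and a SWIM zinc finger lies near the C terminus.

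The salt group was 3 libraries of roots from 1-month-old jinba seedlings given 100 mM salt water, with the salt itself not named in the labels. The control group was 3 libraries from seedlings of the same cultivar and age that received purified water. Roots were taken 24 h after treatment, seedlings of both groups grew at the same temperature and day length, and the design text also mentions a period of controlled watering. It does not make clear whether that period applied to both groups, so its part in a difference between salt and control cannot be told apart from that of salt. The labels call the libraries biological replicates but do not say how many seedlings each holds.

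The salt libraries held 14.5 ± 1.68 M fragments (M for mega), against 17.4 ± 2.35 M in the control libraries (SD, n = 3 each). Of the counts in the regulator table, 10.2% ± 2.09 in salt and 4.01% ± 0.0174 in control came from clusters whose Swiss-Prot match was not a flowering-plant protein (SD, n = 3 each). This makes the scale on which libraries are compared matter, so fold changes are given on the scale of all clusters and, where it changes a call, on a scale set by clusters matched to flowering-plant proteins. The second scale moves the median of all tested clusters up by 0.53 log2 units. Of 18 root regulators listed as markers, 11 were found and 10 averaged at least 1 FPKM (fragments per kilobase and per mega fragments), with a sum of 68.3 to 78.1 FPKM in salt and 109 to 119 in control. The markers did not move as one: BBM (8.54 to 11.22 FPKM in salt, 6.37 to 7.98 in control) and PLT2 (3.71 to 5.50 in salt, 1.44 to 2.04 in control) lay above control, while SHR, LBD16 and GL2 lay below it. Of 11 shoot and leaf regulators, 6 were found and 4 averaged at least 1 FPKM, with a sum of 24.4 to 32.9 FPKM in salt and 39.9 to 45.0 in control. In whole roots, fewer cells of a type and less RNA per cell cannot be told apart.

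Of the 107 members, 83 had a Swiss-Prot match to an Arabidopsis protein with 1 of 11 gene names, FHY3, FAR1 or an FRS, a match that the rule itself used. Domain text, which the rule did not use, bears on fewer of them. For 48 members, all among the 83, it named a SWIM zinc finger (27 members) or a Mutator transposase domain (26 members), with 5 naming both. It named the FAR1 DNA-binding domain in 0 members, and 49 of the 107 had no domain text. Among the 10637 other clusters of the table, 1 named a SWIM finger and 0 named that transposase domain. The other 24 members belong by the authors' family name alone. None of the 24 had SWIM or Mutator text, 23 had no Swiss-Prot match and the last matched a yeast protein. For 16 of the 24 the best protein match was an uncharacterised cotton protein, and for Cluster-59405.0 and Cluster-12772.0 it was a methylmalonate-semialdehyde dehydrogenase. For Cluster-45482.0 and Cluster-71316.49212 it was a protein described as FAR1-related. These 24 are called unnamed members below.

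Family members were scarce in these roots. The median of their mean levels was 0.315 FPKM, against 1.30 FPKM for the other clusters matched to flowering-plant proteins. Of the 107 members, 87 averaged below 1 FPKM, 2 averaged at least 5 FPKM and 4 had no count in any library. Their clusters were 379 to 3692 bases long. After the filter on low counts 34 members were tested, 30 named and 4 unnamed, and 73 were not. The tested members were longer, with a median length of 2346.5 bases, against 1083 bases for those left out. Clusters of 1 gene name can be copies or alleles that share reads, so gene names were also tested with the counts of their clusters summed. Such a sum can also pool different genes that share a best match. Swiss-Prot match scores ran from 154 to 1279 among FRS5 clusters, and the 2 FAR1 clusters scored 2431 and 231.

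Summed over all members, family counts were lower in salt. They came to 102.5, 107 and 105 CPM (counts per mega of effective library size) in the salt libraries, against 163.5, 169 and 157 CPM in the control libraries. The groups did not overlap and the ratio of salt to control was 0.641. The exact two-sided permutation test gave p = 0.1, the smallest that 3 against 3 libraries allow. Set against the counts on flowering-plant clusters, the family came to 0.295% ± 0.0190 in salt and 0.392% ± 0.00467 in control (SD, n = 3 each), a ratio of 0.752. The family sum keeps the unnamed members, none of which has a Swiss-Prot match to a flowering-plant protein. For named members alone the values were 0.269% ± 0.0141 in salt and 0.375% ± 0.00578 in control (SD, n = 3 each), a ratio of 0.718. With CPM on the flowering-plant scale the ratio for all members, named and unnamed, was 0.897. The drop lay in the named members, at 95.7 ± 0.660 CPM in salt and 156 ± 5.81 CPM in control. Unnamed members summed to 9.10 ± 1.62 CPM in salt and 7.28 ± 0.856 CPM in control (exact permutation p = 0.2). Set against the counts on flowering-plant clusters, a total that leaves them out, they were higher in salt without overlap. The values were 0.0257% ± 0.00544 in salt and 0.0175% ± 0.00167 in control (SD, n = 3 each, exact permutation p = 0.1, the smallest possible). That total was itself a smaller part of the table's counts in salt, at 83.8% ± 2.66, against 91.4% ± 0.0693 in control (SD, n = 3 each).

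With clusters summed by gene name, 9 of the 10 names tested were lower in salt and 0 were higher at an adjusted p under 0.05 (edgeR's quasi-likelihood test). Over all 2189 rows of that test, 38% were lower and 36.1% higher, and among the 1040 rows named for a flowering-plant protein 56.8% were lower and 16.2% higher. The median log2 fold change was -1.02 over the 10 family names, -0.59 over rows named for flowering-plant proteins and -0.14 over all rows. On the flowering-plant scale 5 names stayed lower (FRS5, FRS11, FAR1, FRS6 and FRS3) and FRS7 was higher, where 22.9% of all rows were lower and 47.2% higher. On that scale 35% of rows named for flowering-plant proteins were lower and 30.5% higher.

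**Figure D1:**
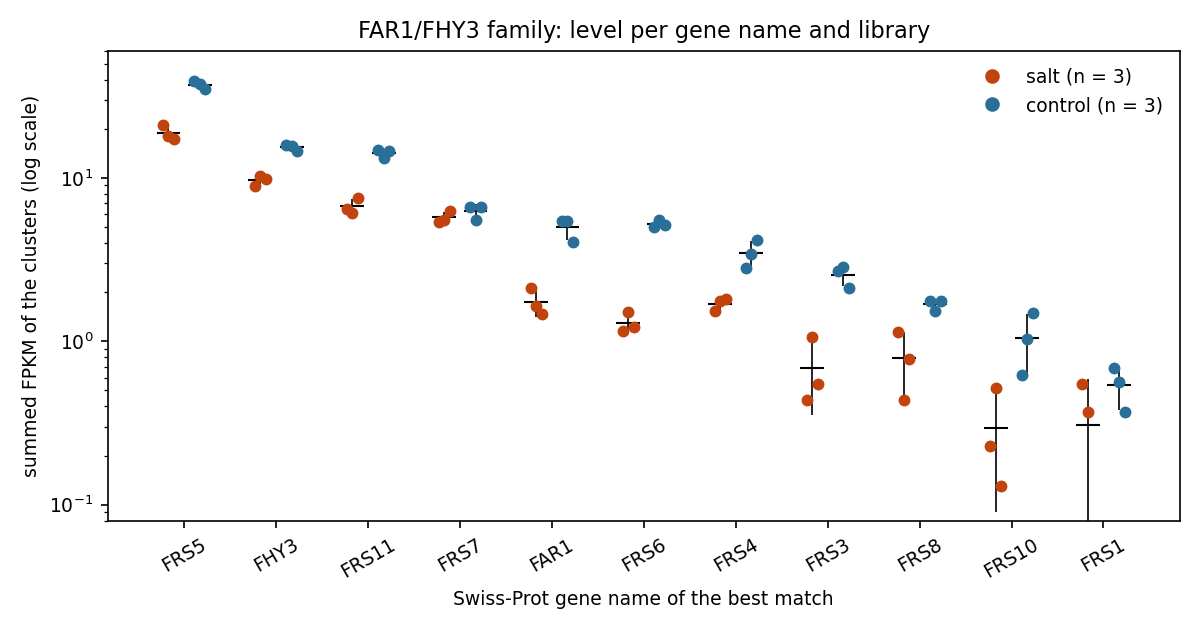
Summed FPKM (log scale) of the clusters of each of the 11 gene names in the 3 salt and 3 control libraries, ordered by mean level; points are libraries, bars the mean and vertical lines the SD. The salt value of 0 for FRS1 in salt 3 is not drawn. Groups lie apart for FRS5, FHY3, FRS11 and FAR1, and overlap for FRS7.

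The 2 founding members differed in the size of their change. FHY3 was the second most abundant name, with summed levels of 8.97, 10.29 and 9.90 FPKM in salt, against 15.84, 15.75 and 14.64 FPKM in control. All salt libraries lay below all control libraries. Its log2 fold change was -0.55 (SE 0.09, adjusted p = 5.9e-04, edgeR), and on the flowering-plant scale it was -0.06 (adjusted p = 0.61), so the FHY3 call rests on the scale. FAR1 stood at 2.13, 1.65 and 1.47 FPKM in salt, against 5.44, 5.41 and 4.07 FPKM in control, with no overlap. Its log2 fold change was -1.43 (SE 0.21, adjusted p = 2.6e-04, edgeR), and on the flowering-plant scale it remained lower at -0.95 (adjusted p = 0.0026).

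FRS5 was the most abundant name and had 42 of the 83 named clusters. It summed to 20.94, 17.93 and 17.26 FPKM in salt, against 39.39, 37.44 and 34.84 FPKM in control. The log2 fold change was -0.83 (SE 0.10, adjusted p = 6.5e-05, edgeR), and -0.35 (adjusted p = 0.0038) on the flowering-plant scale. FRS11 followed FHY3 in level, at 6.44, 6.14 and 7.57 FPKM in salt, against 14.83, 13.29 and 14.67 FPKM in control. It fell by 0.93 on the log2 scale (adjusted p = 8.0e-05, edgeR), and by 0.45 (adjusted p = 0.0079) on the flowering-plant scale.

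FRS7, which in Arabidopsis is known as a repressor of growth and flowering genes, was the exception among the tested names. It stood at 5.39, 5.54 and 6.27 FPKM in salt, against 6.62, 5.49 and 6.59 FPKM in control, and the groups overlapped. Its CPM was 17.8 ± 1.46 in salt and 17.9 ± 1.25 in control (SD, n = 3 each), a log2 fold change of -0.01 (SE 0.10, adjusted p = 0.96, edgeR). On the flowering-plant scale it was called higher, at 0.48 (adjusted p = 0.0053), so its direction depends on the scale.

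FRS6 and FRS8, which restrain flowering in Arabidopsis, are both scarce in these roots. FRS6 had 1.15, 1.51 and 1.22 FPKM in salt, against 5.01, 5.51 and 5.14 FPKM in control. This was the largest fall among the 10 tested names, a log2 fold change of -1.93 (SE 0.24, adjusted p = 9.5e-05, edgeR), and -1.44 (adjusted p = 6.9e-04) on the flowering-plant scale. FRS8 had 1.14, 0.44 and 0.78 FPKM in salt, against 1.76, 1.54 and 1.77 FPKM in control. It was lower by edgeR (log2 fold change -1.11, adjusted p = 0.0096), but not on the flowering-plant scale (-0.64, adjusted p = 0.085). None of its 7 clusters had enough counts to be tested alone. The FRS8 call rests on their sum, at 26, 14 and 18 counts in salt, against 52.01, 61.99 and 52.01 in control.

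FRS4, which acts with FHY3 on chloroplast division in Arabidopsis, had 1.53, 1.76 and 1.82 FPKM in salt, against 2.82, 3.42 and 4.14 FPKM in control. Its log2 fold change was -0.86 (adjusted p = 0.0039, edgeR), and -0.38 (adjusted p = 0.13) on the flowering-plant scale. FRS3 had 0.44, 1.06 and 0.55 FPKM in salt, against 2.69, 2.83 and 2.13 FPKM in control, a log2 fold change of -1.78 (adjusted p = 0.0043, edgeR). FRS10 had 0.23, 0.52 and 0.13 FPKM in salt, against 0.62, 1.04 and 1.48 FPKM in control. Its call as lower (log2 fold change -1.65, adjusted p = 0.026, edgeR) was lost without salt 1, salt 3, control 2 or control 3, and on the flowering-plant scale (-1.17, adjusted p = 0.10). FRS1, at 0.55, 0.37 and 0 FPKM in salt, against 0.69, 0.56 and 0.37 FPKM in control, had too few counts to test.

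The make-up of the family does not depend on how libraries are scaled, and it was compared after the fold changes had been seen. FRS7 took 17.6%, 18.0% and 20.3% of the counts of the 83 named clusters in salt, against 12.03%, 10.24% and 12.29% in control. FRS6 took 1.20%, 1.55% and 1.27% in salt, against 2.95%, 3.36% and 3.13% in control. FAR1 took 4.79%, 3.55% and 3.31% in salt, against 6.87%, 7.00% and 5.36% in control. The groups did not overlap for these 3 names, nor for FRS3 and FRS11, which had lower shares in salt. They overlapped for FRS5, FHY3, FRS4, FRS8, FRS10 and FRS1. Shares within a total are tied to each other, and these values are given as a description with no test.

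**Figure D2:**
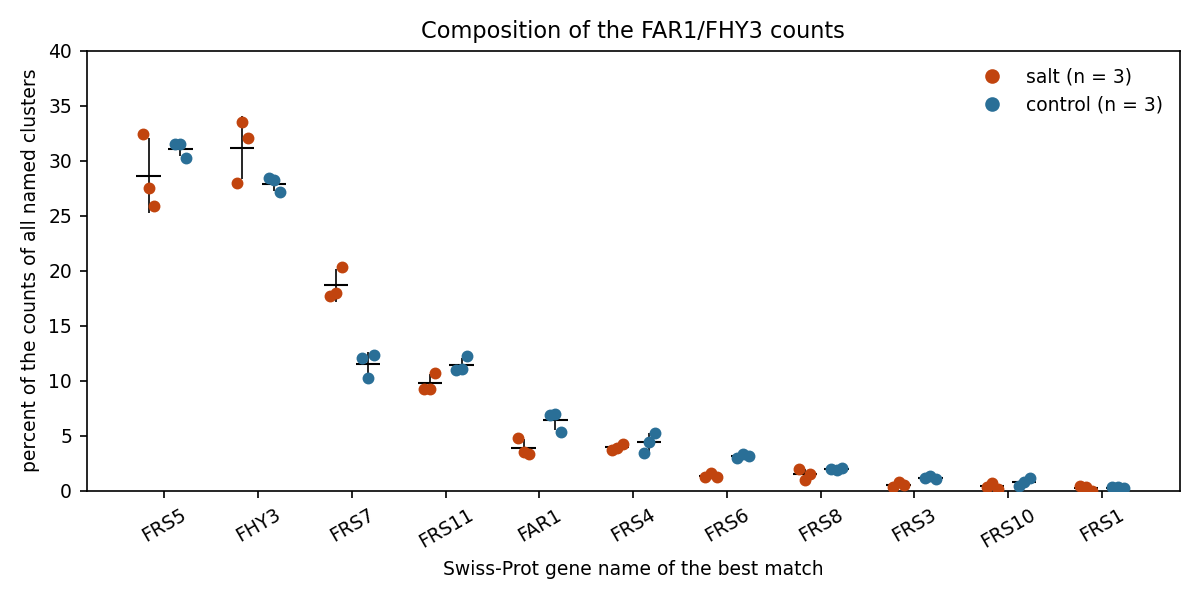
Share of the counts of the 83 named clusters (percent) taken by each gene name in the 3 salt and 3 control libraries; points are libraries, bars the mean and vertical lines the SD. FRS7 lies at 17.6% to 20.3% in salt and 10.2% to 12.3% in control, while FAR1 and FRS6 lie lower in salt.

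Cluster by cluster, 8 of the 34 tested members were lower in salt (23.5%) and 2 were higher (5.88%) at an adjusted p under 0.05 (edgeR). Over all 5284 clusters tested, 29.3% were lower and 23.9% higher, and among the 3829 matched to flowering-plant proteins 35.5% were lower and 12.3% higher. The share of members called lower rests on 34 clusters, and its difference from these backgrounds was not tested. The median log2 fold change was lowest over tested members, at -0.79, against -0.62 over flowering-plant clusters and -0.37 over all clusters. The groups did not overlap for 13 members that were lower and 3 that were higher in salt, beside 39.6% and 27.6% of all clusters. All 8 called lower were named members and both called higher were unnamed. On the flowering-plant scale 3 of 32 members were lower and 3 higher, where 16.5% of all clusters were lower and 33.5% higher. A named member, FRS5 Cluster-71316.325326, was among those 3 higher (log2 fold change 1.08, adjusted p = 0.039, edgeR). It was not called on the scale of all clusters.

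**Figure D3:**
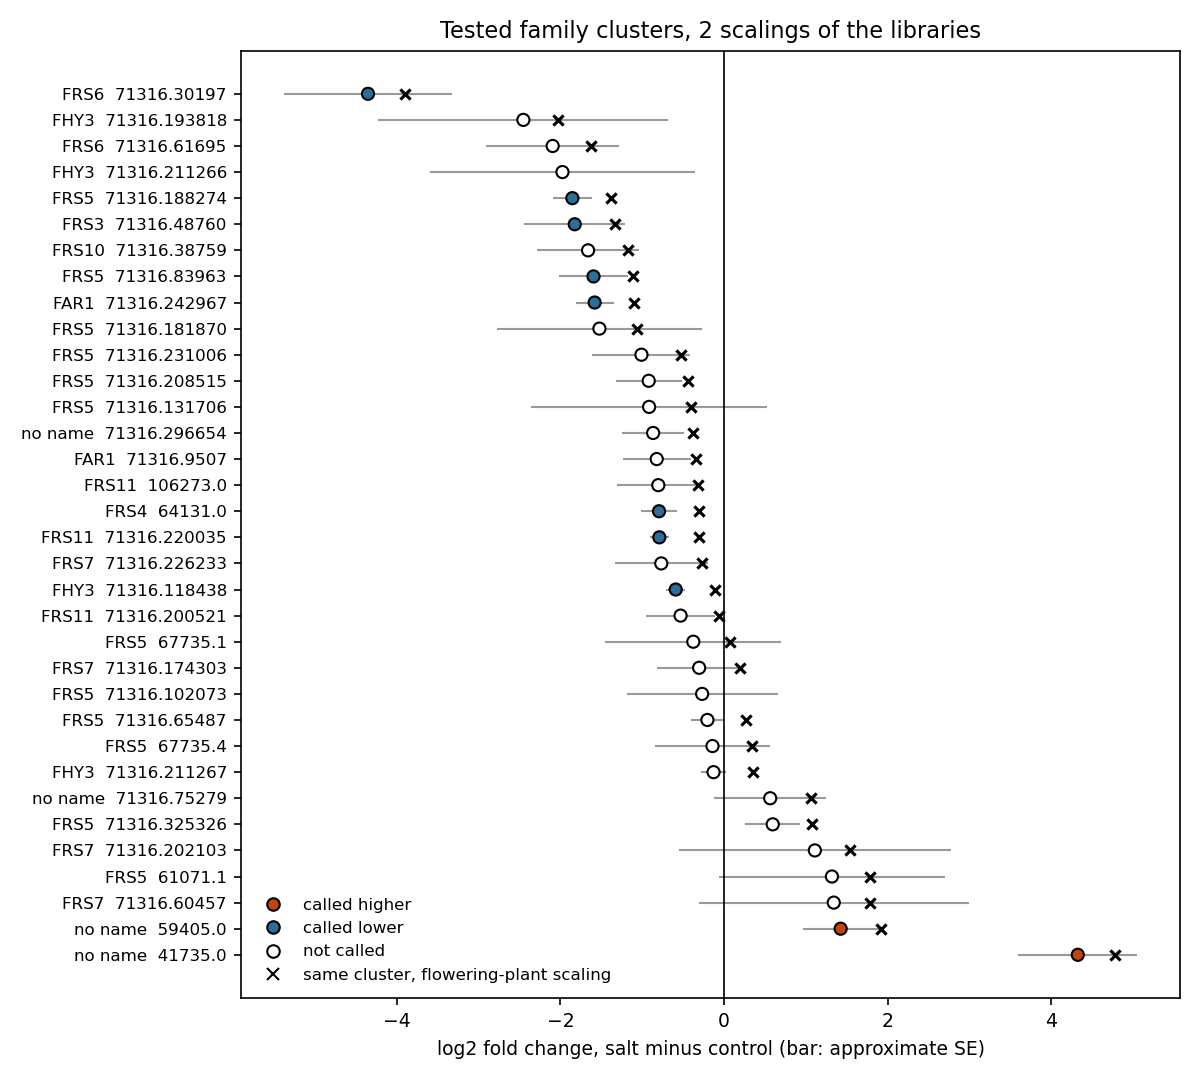
Log2 fold change (salt minus control) of the 34 tested family clusters, with the approximate SE as bars; crosses give the 32 that were also tested on the flowering-plant scale. The 2 clusters called higher carry no Swiss-Prot gene name, and the 8 called lower all do.

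Of the 8, the best FAR1 match, Cluster-71316.242967, had 1.49, 1.00 and 1.12 FPKM in salt, against 4.17, 4.29 and 3.29 FPKM in control. Its log2 fold change was -1.58 (SE 0.23, adjusted p = 0.0020, edgeR). The FRS5 cluster Cluster-71316.188274 had 1.99, 1.70 and 1.11 FPKM in salt, against 6.66, 6.10 and 6.29 FPKM in control, a log2 fold change of -1.85 (SE 0.24, adjusted p = 0.0013, edgeR). These clusters and the FRS6 cluster Cluster-71316.30197 are the 3 that were also called lower on the flowering-plant scale.

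The other 5 lost their call on that scale. The main FHY3 cluster, Cluster-71316.118438, had 5.80, 6.90 and 7.02 FPKM in salt, against 11.44, 10.97 and 9.89 FPKM in control (log2 fold change -0.59, adjusted p = 0.0055, edgeR). The main FRS11 cluster, Cluster-71316.220035, had 2.92, 3.19 and 3.46 FPKM in salt, against 6.09, 5.66 and 6.26 FPKM in control (log2 fold change -0.79, adjusted p = 0.0022, edgeR). Both sets of libraries lay fully apart. The second FRS5 cluster to fall, Cluster-71316.83963, had 0.45, 0.34 and 0.86 FPKM in salt, against 2.04, 1.97 and 1.38 FPKM in control (log2 fold change -1.60, adjusted p = 0.019, edgeR).

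The FRS4 cluster Cluster-64131.0 had 1.22, 1.19 and 1.44 FPKM in salt, against 1.90, 2.54 and 2.82 FPKM in control (log2 fold change -0.79, adjusted p = 0.023, edgeR). The FRS3 cluster Cluster-71316.48760 had 0.07, 0.37 and 0.41 FPKM in salt, against 0.88, 1.22 and 1.27 FPKM in control (log2 fold change -1.83, adjusted p = 0.044, edgeR). The FRS3 call was lost when any 1 of the 6 libraries was left out (adjusted p 0.071 to 0.14). The FRS4 call was lost without salt 1, salt 2, control 2 or control 3, and that of Cluster-71316.83963 without salt 1, salt 2, control 1 or control 2.

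The most abundant member of all, FRS5 Cluster-71316.65487, had a match score of 297 and no domain text, and it was not called. It had 11.51, 7.59 and 8.40 FPKM in salt, against 9.72, 12.40 and 12.24 FPKM in control, and the groups overlapped (log2 fold change -0.20, adjusted p = 0.42, edgeR). As a share of all FRS5 counts it made up 42.0%, 32.5% and 38.0% in salt, against 20.1%, 26.2% and 27.1% in control. Cluster-71316.188274 made up 9.47%, 9.51% and 6.55% in salt, against 18.0%, 16.8% and 18.2% in control. The groups of libraries were apart for both shares. These 2 clusters were set side by side because their fold changes differed, so the shares are a description with no test, and for 8 of the other 10 tested FRS5 clusters the shares of the groups overlapped.

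FHY3 showed a smaller difference of the same kind between its 2 main clusters. The lesser one, Cluster-71316.211267, had 2.37, 3.15 and 2.82 FPKM in salt, against 3.54, 3.08 and 3.31 FPKM in control (log2 fold change -0.13, adjusted p = 0.50, edgeR). It held 27.9%, 30.6% and 28.5% of FHY3 counts in salt, against 22.6%, 20.1% and 22.7% in control. The groups did not overlap in that share, which is likewise a description. The main cluster held 68.1%, 66.8% and 70.7% in salt, against 72.7%, 71.4% and 67.7% in control, and the groups overlapped.

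The FRS7 clusters varied between libraries far more than their sum. All 6 matched the same protein with the same score of 2295. The main one, Cluster-71316.174303, had 1.12, 4.67 and 3.88 FPKM in salt, against 2.85, 4.18 and 5.99 FPKM in control, and it held 20.8% to 84.0% of the FRS7 counts in salt and 42.5% to 90.1% in control. Cluster-71316.60457 had 3.27, 0.55 and 1.29 FPKM in salt, against 2.23, 0 and 0 FPKM in control. The coefficient of variation of its CPM was 83.0% in salt and 173% in control, while that of the FRS7 sum was 8.16% in salt and 6.97% in control. Libraries low in one copy were high in another, and the sum was steady.

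**Figure D4:**
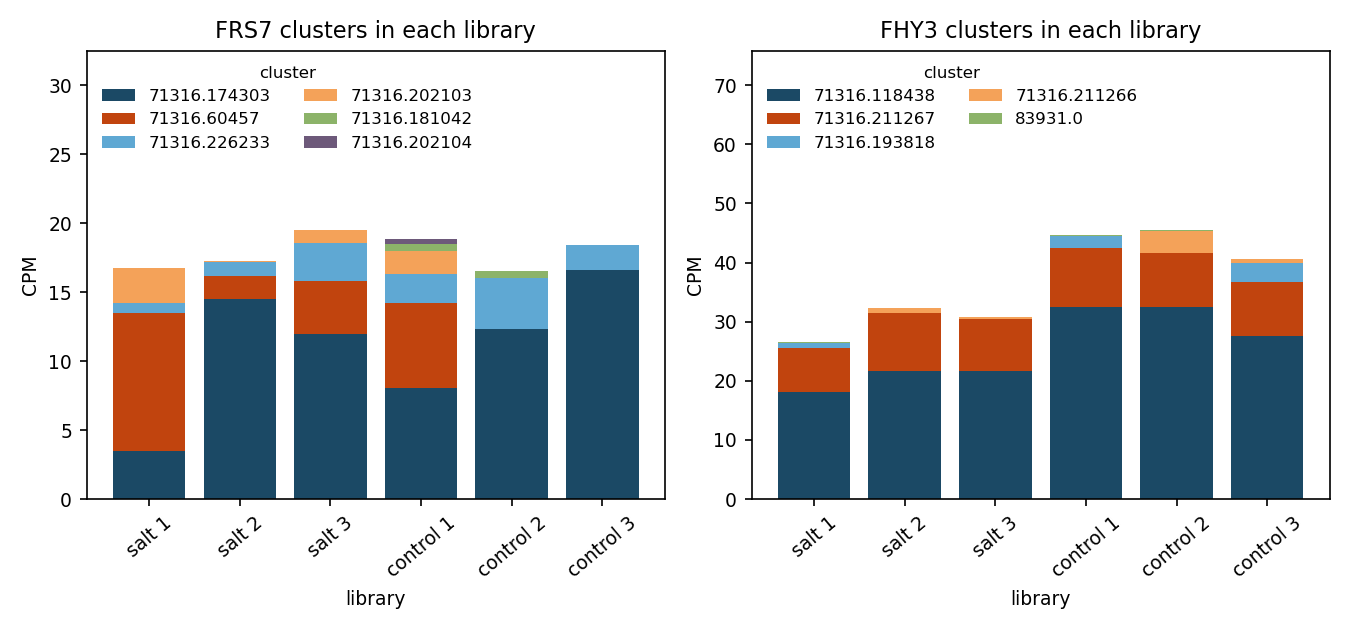
Stacked CPM of the clusters named FRS7 (left) and FHY3 (right) in each library. In FRS7 the split between Cluster-71316.174303 and Cluster-71316.60457 changes from library to library while the total stays near 17.8 CPM in salt and 17.9 CPM in control; in FHY3 all salt totals lie below all control totals.

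Not all FRS6 clusters were called lower in salt. Cluster-71316.30197 had 0.42, 0 and 0 FPKM in salt, against 3.83, 3.32 and 2.64 FPKM in control (log2 fold change -4.35, SE 1.03, adjusted p = 0.012, edgeR). Cluster-71316.264580, with the same Swiss-Prot and protein database match, had 0.45, 1.12 and 1.22 FPKM in salt, against 0, 0.58 and 0.37 FPKM in control. The groups overlapped for it, and it had too few counts to test, so no direction is given. Their summed counts gave a log2 fold change of -1.67 (SE 0.29, adjusted p = 0.0013, edgeR), a smaller fall than that of the first cluster alone. A further FRS6 cluster with the same Swiss-Prot score, Cluster-71316.44666, stands outside this sum because its match in the other database differs. It had 0 counts in every salt library, against 4.17, 14.3 and 11.4 counts in control, and it is part of the FRS6 total above.

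Both members called higher lack a Swiss-Prot match. Cluster-41735.0, with no protein match in either database, had 1.65, 1.21 and 1.46 FPKM in salt, against 0.12, 0.09 and 0 FPKM in control. Its log2 fold change was 4.32 (SE 0.72, adjusted p = 0.0031, edgeR). Cluster-59405.0, matched to the dehydrogenase, had 0.86, 1.50 and 1.78 FPKM in salt, against 0.30, 0.74 and 0.61 FPKM in control (log2 fold change 1.43, adjusted p = 0.039, edgeR), a call lost without salt 2, salt 3, control 1 or control 3. Of the 591 tested clusters with no Swiss-Prot match, 35.4% were higher and 21.8% lower. Clusters with no match held 6.02% ± 0.574 of the table's counts in salt and 4.57% ± 0.0592 in control (SD, n = 3 each). The organism behind these 2 clusters was not tested.

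The authors' deposited table called 3 members UP and 8 DOWN in salt, where 13.5% of the whole table was UP and 10.2% DOWN. None of its 3 UP members was a named one. All 4 of its DOWN members and both of its UP members that passed the filter used here were also called here in the same direction, from the same counts. Of the 8 members called lower here, 4 were not called in the authors' table. Some of its calls rest on clusters without a count in 1 group. FRS5 Cluster-69331.0 had 0 counts in salt, against 0, 34.3 and 38.6 counts in control. From the group sums it was at least 18.7-fold lower in salt when the group is set at 3 counts, but control 1 was also at 0. Cluster-61071.1, with the same match and score of 753, had 12.67, 11.88 and 14.69 counts in salt, against 19.55, 0 and 0 in control. The 4 FRS5 clusters with this match and score, summed, gave a log2 fold change of -0.82 (adjusted p = 0.098, edgeR). FRS11 Cluster-106273.1 had 0 counts in salt and 13.7, 11.3 and 35.7 in control, at least 15.5-fold lower on the same floor. FRS6 Cluster-71316.44666 was at least 7.65-fold lower. In the other direction, the dehydrogenase-matched Cluster-12772.0 had 3, 23 and 6 counts in salt and 0 in control, at least 13.9-fold higher. Of the 103 members with any count, 23 (22.3%) had 0 counts in every salt library alone and 2 (1.94%) in every control library alone. Among all clusters with a count these shares were 7.88% for salt and 8.5% for control, and among those matched to flowering-plant proteins 9.16% for salt and 3.26% for control. Members were scarcer than other clusters and the salt libraries were shallower, and the part of either in these shares was not tested.

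The surrounding pathway was read from a list of 40 names of phytochrome A signalling genes, targets and partners known from Arabidopsis. Some of the names, such as APRR1 and TOC1, are aliases of the same gene. The table held clusters for 12 of the names, 85 in all, of which 45 were tested. Of these, 19 were lower in salt (42.2%) and 2 higher (4.44%) by edgeR, with a median log2 fold change of -0.72. Among all clusters tested 29.3% were lower and 23.9% higher, and among those matched to flowering-plant proteins 35.5% were lower and 12.3% higher, with a median of -0.62. Without the clusters named PHL1, 12 were lower and 2 higher. On the flowering-plant scale the split was 11 lower and 8 higher of 43, with a median of -0.23, where 16.5% of all clusters were lower and 33.5% higher and the median of flowering-plant clusters was -0.12. The phytochromes and the FHY1 and FHL carriers that FHY3 and FAR1 activate were on the list. The table held no cluster under their names, so no value is given for them.

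**Figure D5:**
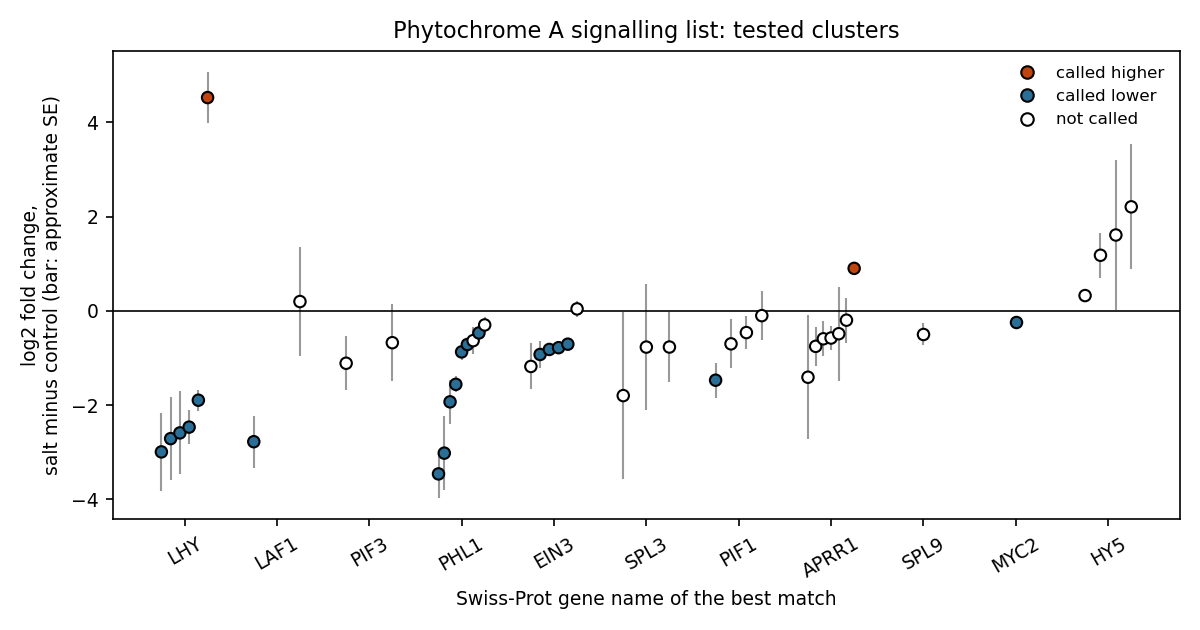
Log2 fold change (salt minus control) of the 45 tested clusters of the phytochrome A signalling list, by gene name, with the approximate SE as bars. LHY clusters were lower in 5 of 6 cases and PHL1 clusters in 7 of 9, while the 4 HY5 clusters lay above 0 without a call.

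Clusters of clock genes were called in both directions. LHY, a morning clock repressor, had 5 of 6 tested clusters lower and 1 higher, and on the flowering-plant scale 3 lower and 1 higher. Its most abundant cluster, Cluster-71316.185282, had 2.85, 2.98 and 3.06 FPKM in salt, against 13.47, 10.94 and 11.33 FPKM in control (log2 fold change -1.90, adjusted p = 9.1e-04, edgeR). The single LHY cluster that was higher, Cluster-71316.17741, had 1.76, 2.89 and 1.79 FPKM in salt, against 0.06, 0.15 and 0.06 FPKM in control, and was picked out after its values were seen. APRR1 (TOC1), the evening clock repressor, had 1 of 7 tested clusters higher, while the other 6 had log2 fold changes of -1.41 to -0.20 and none was called. The one called, Cluster-71316.56282, had 13.65, 12.24 and 12.20 FPKM in salt, against 7.88, 7.38 and 6.90 FPKM in control (log2 fold change 0.90, SE 0.11, adjusted p = 9.9e-04, edgeR). CCA1, the close relative of LHY, had 2 clusters, too low to test on the scale of all clusters. The higher of them, Cluster-6585.0, had 0.90, 0.52 and 1.08 FPKM in salt and was listed at 0 in all control libraries. It was tested and higher on the flowering-plant scale (adjusted p = 0.0031, edgeR), and the authors' deposited table called it UP.

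EIN3, the central transcription factor of the ethylene response, had 4 of 6 clusters lower. Its main cluster, Cluster-71316.180821, had 56.78, 52.87 and 55.68 FPKM in salt, against 104.13, 106.64 and 98.69 FPKM in control (log2 fold change -0.78, adjusted p = 3.3e-04, edgeR). PHL1, a phosphate starvation regulator, had 7 of 9 lower, with the main cluster Cluster-71316.166351 at 28.31, 28.14 and 24.02 FPKM in salt, against 38.38, 41.00 and 42.10 FPKM in control (log2 fold change -0.47, adjusted p = 0.0061, edgeR). On the flowering-plant scale this EIN3 cluster stayed lower (-0.30, adjusted p = 0.0040, edgeR) and this PHL1 cluster did not (0.01, adjusted p = 0.93, edgeR). Counted by name on that scale, EIN3 had 3 clusters lower and 1 higher, and PHL1 had 5 lower and 0 higher.

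HY5, the bZIP activator of light responses, had 0 of 4 clusters called. Its main cluster, Cluster-71316.265330, had 18.28, 18.79 and 18.68 FPKM in salt, against 16.21, 14.34 and 18.19 FPKM in control (log2 fold change 0.32, adjusted p = 0.072, edgeR), and was higher on the flowering-plant scale (0.80, adjusted p = 0.0031). MYC2, the jasmonate response activator, had 43.44, 42.62 and 43.97 FPKM in salt, against 56.44, 54.22 and 56.28 FPKM in control. It was lower on the scale of all clusters (log2 fold change -0.24, adjusted p = 0.023, edgeR) and higher on the flowering-plant scale (0.24, adjusted p = 0.022), so no direction can be given. LAF1 and PIF1 each had 1 cluster lower, of 2 and 4 tested. On the flowering-plant scale the LAF1 cluster did not pass the filter on low counts and the PIF1 cluster was not called (adjusted p = 0.071, edgeR). PIF3, SPL3 and SPL9 had 0 calls among 2, 3 and 1 tested on the scale of all clusters.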

How the data were processed

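RNA from 6 root libraries (3 salt, 3 control) was measured on sequence clusters. Per the submitters' processing notes, Bowtie2 2.0.6 and TopHat2 2.0.12 were used; the sources used here do not give the assembler or counter. Per the file headers, the authors deposited expected counts, FPKM, the match score of each cluster, and their own log2 ratio with a q-value for salt against control. The tool behind those calls is not named.

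Depth was recovered from the counts and FPKM of clusters with at least 200 counts and 1000 bases. Expected counts were rounded. The quasi-likelihood F-test of edgeR 4.0.16 under R 4.3.3 compared salt minus control, after filterByExpr at its defaults. Library size was depth times TMM factors from the FPKM of all clusters. P-values were adjusted by Benjamini-Hochberg over all clusters tested (5284) or over the 2189 rows summed by Swiss-Prot gene name, with calls at an adjusted p under 0.05. SE is that implied by the F statistic. The flowering-plant scale takes TMM factors from clusters matched to flowering-plant proteins. Alternatives used DESeq2 1.42.0 and limma 3.58.1 on log2(FPKM + 1) or log2(FPKM + 0.1).

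Named were the most abundant tested cluster of each gene name, the 8 largest falls and rises among called members without overlap, the 5 most abundant members and, for each pathway name, the most abundant tested cluster. Others were named after their values were seen. Members, lists and tests were chosen with earlier results of these data known. The deviations of same-numbered libraries correlated only weakly, and the numbers were not taken as pairs. Since the labels call the libraries biological replicates, p-values reflect the variation among them. A gene name comes from the top Swiss-Prot hit and is no proof of orthology. No sequences are printed and no genome was used here.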

Additional observations from a re-analysis of the deposited data

How the results depend on the processing

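Members called lower (8 on the scale of all clusters) numbered 5 with DESeq2 size factors, 3 with flowering-plant scaling or with flowering-plant clusters alone, 5 with a fold of at least 2, and 3 with only Swiss-Prot-matched members on the flowering-plant scale; leaving out 1 library gave 7 to 11. Members called higher (2) numbered 1 with flowering-plant clusters alone, 1 with limma at either pseudocount, 0 with Swiss-Prot-matched members only, and 1 for these on the flowering-plant scale; leaving out 1 library gave 1 to 3, with 1 without salt 2, salt 3 or control 3. Gene names lower (9) numbered 5 under either flowering-plant setting and 5 with a fold of at least 2, and 8 to 9 without 1 library. Gene names higher (0) numbered 1 under either flowering-plant setting, and 0 without any 1 library. Pathway clusters lower (19) numbered 11 with flowering-plant scaling, 9 with flowering-plant clusters alone, 11 with a fold of at least 2, 12 without PHL1 (an alternative chosen after seeing the data), and 11 to 19 without 1 library, 11 being without control 1. Pathway clusters higher (2) numbered 5 with DESeq2 size factors, 8 under either flowering-plant setting, 1 with a fold of at least 2, and 2 to 4 without 1 library, 4 being without control 3. The cause of these changes was not tested.

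The replicate block gave 2 members higher, 6 lower and 12 pathway clusters lower. Deviations of same-numbered libraries correlated at only 0.014 to 0.037, against -0.038 to 0.014 for libraries with different numbers. Such weak correlations do not settle whether the numbers mark pairs.

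The log2 fold change turned positive for FRS5 Cluster-71316.65487 (0.069 with DESeq2 size factors, 0.27 under both flowering-plant settings), FRS7 Cluster-71316.174303 (0.20 under both, and -0.68 to 0.10 when 1 library was left out, above 0 without salt 1) and MYC2 (0.040 with DESeq2 size factors, 0.24 under both). It also did for PHL1 Cluster-71316.166351 (0.011 under both), PIF1 Cluster-71316.277312 (0.016 with flowering-plant scaling, 0.015 with flowering-plant clusters alone) and the FRS7 sum (0.27 with DESeq2 size factors, 0.093 with column sums, 0.48 under both, and -0.075 to 0.038 when 1 library was left out, above 0 without salt 1, salt 2, control 1 or control 3). Of 562 recomputed values of 34 single results, 462 kept direction and side of the threshold, 71 lost the call, 8 gained one and 21 changed direction. The family ratio of 0.641 ranged over 0.589 to 0.897 and stayed below 1. Of all calls, 44.9% were higher on the scale of all clusters, 66.9% on the flowering-plant scale, 57.2% for DESeq2 size factors, 39.7% for depth alone and 49.1% for column sums. Low counts left 73 of 107 members untested.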
